A study of Mus musculus with 18 samples.

Results

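Kidneys of mice given STZ and then a transfer labelled control FMT (STZ+control-FMT) were set against kidneys of mice labelled control, which asks what still differs from normal after the transfer. The 6 libraries were taken by their treatment label, 3 in each group, out of 18 in the series. The comparison itself was chosen with earlier results of these data known. All mice were of the ICR strain, an outbred stock, and 10 weeks old. STZ usually stands for streptozotocin, which kills the insulin-producing beta cells of the pancreas and is given to rodents to cause diabetes. FMT usually stands for faecal microbiota transplantation, the passing of gut microbes from a donor to a recipient. Control before FMT is taken to describe the donors. The labels give no dose of STZ, no time of the transfer and no glucose value. The other 12 libraries, 3 each, were labelled STZ, AOS at 10 mg/kg, STZ with AOS at 10 mg/kg (STZ+AOS) and STZ with a transfer labelled by AOS at 10 mg/kg (STZ+AOS-FMT). The labels do not spell out AOS. No group had the transfer without STZ, so STZ and the transfer cannot be told apart in the comparison with control. The labels number the samples of a group 1 to 3 without saying that each is another mouse, so a p-value here measures only how these samples spread, and that spread may be technical.

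As background, the proximal tubule takes filtered glucose and amino acids back into the blood and draws much of its energy from the oxidation of fatty acids in mitochondria and peroxisomes. In many tissues insulin raises the genes of fatty acid synthesis through the transcription factor SREBP-1c, and loss of insulin lowers them. Stress to tubule cells is known to raise targets of p53, which arrest the cell cycle, and the kidney has its own circadian clock, whose output genes swing with the hour of the day. The labels do not give the hour at which tissue was taken.

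Values are FPKM, a read count scaled by gene length and by library size, given for replicates 1, 2 and 3 in this order unless stated. Differences are STZ+control-FMT minus control on the scale of log2(FPKM + 1), with their standard error, and on this scale the change of a gene near 0 is understated. They were tested with limma over 12682 genes, with Benjamini-Hochberg adjustment and a threshold of 0.05. No read totals came with the values, so depth is unknown in absolute terms and counting intervals are left out. In each of the 6 libraries between 11523 and 12408 genes reached 1 FPKM.

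The library labelled control 3 stood apart from controls 1 and 2. Pearson's r of log2 values over 12677 genes, a description across genes, was 0.989 between controls 1 and 2, 0.955 and 0.958 between control 3 and these, and from 0.990 to 0.991 among the 3 STZ+control-FMT libraries. Kap, the androgen-regulated protein of the proximal tubule, was at 150876, 145522 and 15798 FPKM in control kidneys against 64840.0, 85880.2 and 75587 in STZ+control-FMT. The summed FPKM of 11 genes of adrenal steroid synthesis was 1048 in control 3, 67.5 to 72.7 in the other controls and 61.1 to 67.8 in STZ+control-FMT. Control 3 was not alone in this. The sum was 2825, 199 and 2428 in STZ+AOS, 69.3, 114 and 121 in STZ and 66.3 to 70.8 in AOS and STZ+AOS-FMT. Kap was at 6174, 35781 and 41198 in STZ+AOS, whose libraries also enter the shared estimate of spread. Cyp11b1, the adrenal enzyme that makes corticosterone, was listed at 0 in controls 1 and 2 and in all STZ+control-FMT libraries and was at 118 in control 3. Of the adrenal genes, Cyp11b1, Cyp11b2 and Nr5a1 were all listed at 0 in STZ+control-FMT. The STZ libraries, which enter the shared estimate of spread, had Kap at 144830.0, 63552 and 14615, and STZ 1 was thus close to controls 1 and 2. Whether these 2 libraries carry the right label, or were dissected like the others, could not be checked from the labels, so every control and STZ value rests on the labels as given. List results are given with control 3 and without it. Control 3 and STZ 1 were singled out by their own values, for control 3 those of p53 and clock genes among them. Calls made without them are thus a description and not an independent test. Members called without control 3 and STZ 1 are named or only counted where the list is described. In bulk tissue, fewer cells of a type and less RNA per cell cannot be told apart.

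After the control transfer 9 genes were lower than in the controls and 0 were higher (0.071% of 12682 genes called). They were 8 genes of spermatids and Scd1, the desaturase of fatty acid synthesis. At an unadjusted p under 0.05 there were 595 genes (4.69%), 371 higher and 224 lower, and the median difference of all genes was 0.02. Of all 12682 genes 7144 had a higher mean and 5536 a lower one. Without control 3 it was 8962 and 3710, with a median of 0.11. The counts and medians of lists below are to be read beside these. The groups did not overlap for 660 genes on the higher and 526 on the lower side (9.35% of all genes). Of 40 lists of genes, all but those of spermatids and of fatty acid synthesis, 38 in number, had 0 members called. The lists were chosen with earlier results of these data known, so where the calls fall among them is a description and not a test. Without control 3, 6 genes passed (0.0473%), 1 higher (0.00789%) and 5 lower (0.0394%), the 5 being among the 9, and 1838 genes (14.5%) had an unadjusted p under 0.05. With control 3 and STZ 1 both left out, 215 genes were higher and 84 lower (2.36%), and all 9 remained among them. A fit of the 2 groups alone called 4 genes with control 3 and 992 without it, and limma with a weight for each library called 1585, 1198 of them higher. The 9 genes were lower in every alternative run in which they were tested.

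**Figure D1:**
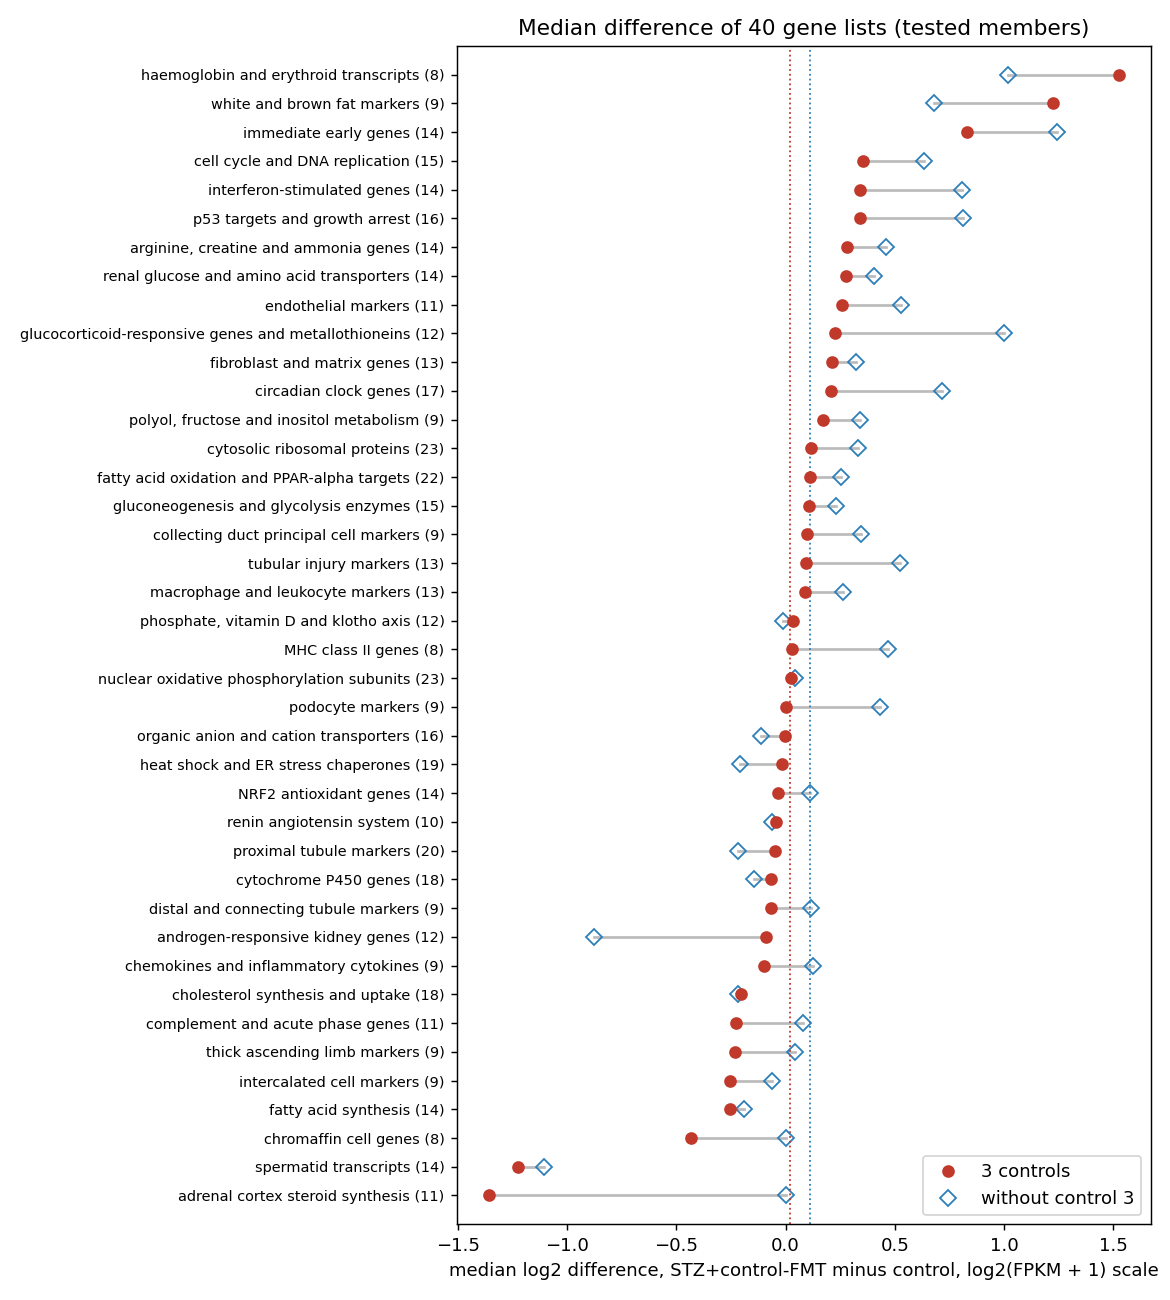
Median log2 difference, STZ+control-FMT minus control on the log2(FPKM + 1) scale (x axis), of the tested members of 40 gene lists (y axis, number of tested members in parentheses), with the 3 controls (filled circles) and without control 3 (open diamonds). Dotted lines mark the median of all 12682 genes, 0.02 and 0.11. The adrenal list lies at -1.36 with control 3 and at 0.00 without it, whereas the spermatid list lies at -1.23 and -1.11.

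Scd1 (stearoyl-CoA desaturase 1; chromosome 19, 44394455 to 44407879, mm10), which makes monounsaturated fatty acids from saturated ones, was at 82.1, 56.02 and 27.8 FPKM in control kidneys against 4.05, 9.69 and 6.31 in STZ+control-FMT. The lowest control was above the highest STZ+control-FMT library. The means were 55.3 ± 27.1 and 6.68 ± 2.84 (SD, n = 3), 8.28 times higher in the controls, and the log2 difference was -2.81 ± 0.44 (limma adjusted p = 0.0213). Without control 3, the lowest of the controls, it was -3.23 ± 0.44 (adjusted p = 0.0131). Scd1 no longer passed without control 1 (adjusted p = 0.121), control 2 (0.118), STZ+control-FMT 1 (0.182) or STZ+control-FMT 3 (0.134), in the fit of the 2 groups alone (0.488), and when FPKM were rescaled by median of ratios (0.0546) or only genes with a mean of at least 5 FPKM were tested (0.117). The difference stayed between -2.29 and -3.23 in the alternatives run.

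In the other groups Scd1 was at 22.4, 6.32 and 10.96 FPKM in STZ, 13.9, 8.34 and 7.87 in STZ+AOS, 8.35, 6.72 and 3.60 in STZ+AOS-FMT and 42.6, 41.95 and 37.1 in AOS. The 12 libraries given STZ thus lay between 3.60 and 22.4, and the 6 not given it between 27.8 and 82.1, control 3 included. STZ+control-FMT differed from STZ by -0.79 ± 0.44 (limma adjusted p = 1.00) and STZ from control by -2.02 ± 0.44 (0.714), neither of which passed. Against AOS, which shares no library with the controls, the difference was -2.50 ± 0.44 (0.266), which did not pass either. These comparisons share the STZ+control-FMT or the control libraries.

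The list of fatty acid synthesis had 14 tested members, of which 1, Scd1, was called lower and 0 higher. The mean was lower in 12 of the 14, and the median difference was -0.25, beside 0.02 for all genes. Without control 3 it was 10 of 14 and -0.19, beside 0.11 for all genes. Groups did not overlap, on the lower side, for 3 members (4.15% of all genes): Scd1, Acly and Fads2. Acly, which makes cytosolic acetyl-CoA, was at 43.2, 48.3 and 41.03 FPKM in control kidneys against 34.01, 34.6 and 36.2 in STZ+control-FMT (adjusted p = 1.00). Fads2, the delta-6 desaturase, was at 55.7, 70.2 and 68.8 against 52.8, 52.2 and 51.02 (1.00).

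Fasn, which builds palmitate, was at 28.1, 22.3 and 7.0 FPKM in control kidneys against 5.78, 9.87 and 8.14 in STZ+control-FMT, a difference of -1.004 ± 0.42 that did not pass (adjusted p = 1.00). Controls 1 and 2 were above every STZ+control-FMT library, and control 3 lay among them. Acaca, which makes malonyl-CoA for it, was at 8.16, 6.32 and 3.5 against 3.77, 4.61 and 4.01 (1.00). With control 3 and STZ 1 left out, the difference was -1.57 for Fasn (limma adjusted p = 0.00117) and -0.68 for Acaca (0.0259), and both passed. Of the 14 members 3 were called lower in that fit (0.662% of all genes) and 0 higher. Thrsp, a lipogenic regulator that follows thyroid hormone and insulin, was at 39.9, 22.8 and 6.09 against 13.9, 17.6 and 6.04 and overlapped. Srebf1, which encodes SREBP-1, was at 10.3, 11.6 and 10.8 against 7.77, 11.9 and 10.5, with a difference of -0.12 ± 0.19.

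Among genes of cholesterol synthesis and uptake, 16 of 18 tested members had a lower mean (median -0.21, 0 called), and without control 3 it was 13 of 18 (median -0.22). Msmo1, a sterol demethylase, was at 26.3, 33.7 and 35.7 FPKM in control kidneys against 18.9, 23.4 and 21.9 in STZ+control-FMT, and Sc5d, a sterol desaturase, at 7.5, 6.62 and 7.35 against 5.97, 6.06 and 5.13. The groups did not overlap for these 2 genes of the 18 (4.15% of all genes on the lower side).

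Adipocytes express Scd1 and Fasn as well, and 7 of 9 tested fat markers had a higher mean after the control transfer. The summed FPKM of the 10 fat markers, all above 0 in both groups, was 196 to 745 in the controls and 738 to 1249 in STZ+control-FMT, so the sums overlapped at 1 library each. Their part in the lipid results was not tested. Adipoq, the adipocyte hormone adiponectin, was at 25.4, 12.04 and 4.11 FPKM in control kidneys against 37.6, 30.9 and 48.2 in STZ+control-FMT, and Cfd, the adipocyte protease adipsin, at 168, 60.5 and 19.2 against 361, 225 and 601. Of the 9 tested fat markers 4 were higher without overlap (5.2% of all genes), Adipoq, Plin1, Cfd and Fabp4, with a median of 1.23 and 0 called. Without control 3, which had the lowest sum, 6 of 9 had a higher mean and the median was 0.68. Lpl, lipoprotein lipase, which other cells of the kidney also make, was at 177, 251 and 39.2 against 44.2, 91.1 and 74.4. It fell by 1.64 with control 3 and STZ 1 left out (limma adjusted p = 0.0422), where 0.662% of all genes were called lower.

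**Figure D2:**
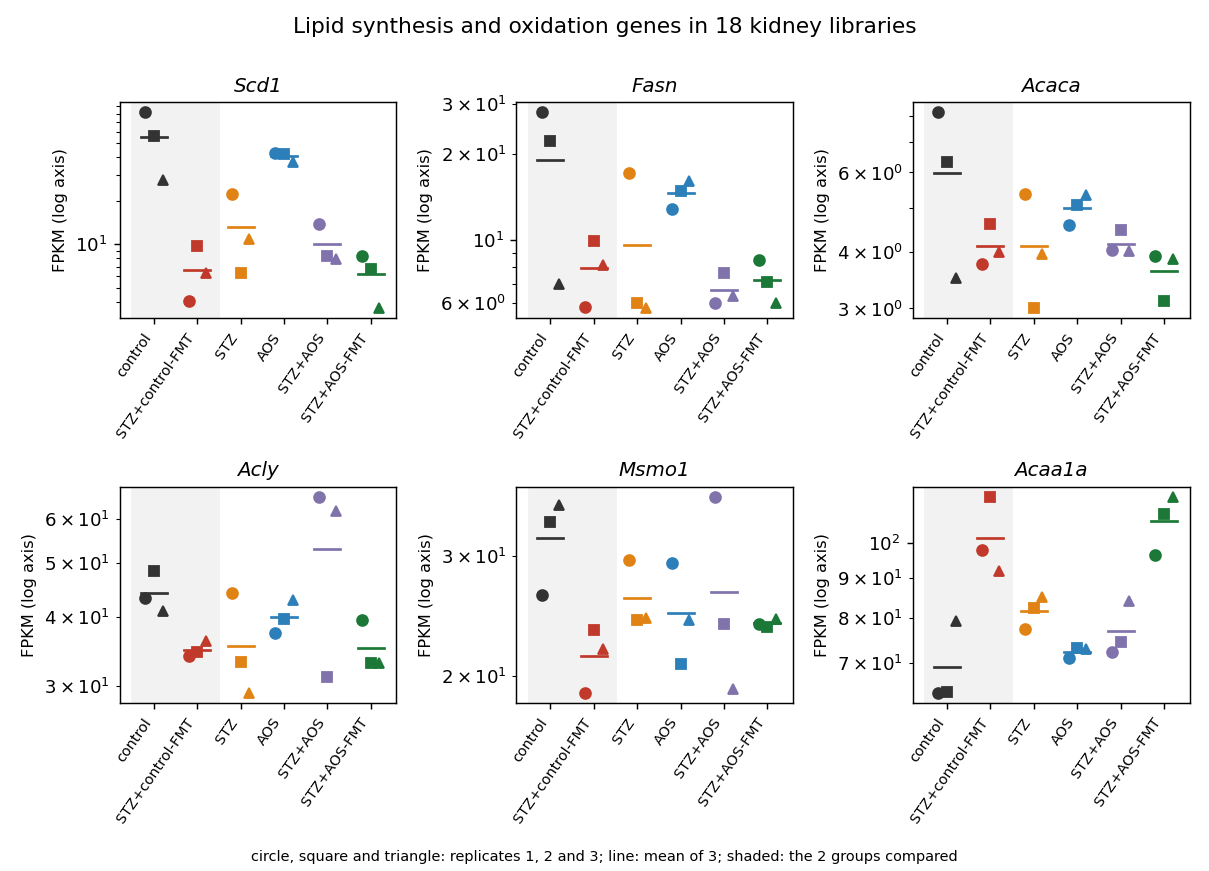
FPKM (y axes, log scale) of 5 genes of fatty acid and sterol synthesis and of the peroxisomal thiolase gene Acaa1a in 18 libraries by group (x axes); circles, squares and triangles are replicates 1, 2 and 3 and lines are means. Scd1 lies between 4.05 and 9.69 in STZ+control-FMT and between 27.8 and 82.1 in the controls, and Acaa1a is higher in all STZ+control-FMT libraries than in any control.

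No gene rose over all genes tested. The smallest p among the genes that were higher without overlap belonged to Acaa1a (chromosome 9, 119339676 to 119350299), a peroxisomal thiolase of the last step of fatty acid beta-oxidation. It was at 64.02, 64.2 and 79.2 FPKM in control kidneys against 98.1, 115 and 92 in STZ+control-FMT, a difference of 0.55 ± 0.10 (limma adjusted p = 0.0918). Without control 3 it was 0.65 ± 0.10 and passed (0.0362). Acaa1a was at 96.6, 109 and 115 in STZ+AOS-FMT, 77.5, 82.3 and 85.2 in STZ, 72.3, 74.4 and 84.2 in STZ+AOS and 71.04, 73.2 and 73.01 in AOS. Every library of both transfer groups was above every other library. The tests behind this did not pass. Acaa1a in STZ+control-FMT differed from STZ by 0.31 ± 0.10 and from AOS by 0.48 ± 0.10 (limma adjusted p = 0.391 for AOS). Acaa1b, a close copy whose reads the counting could have mixed with it, was at 124, 102 and 176 in control kidneys against 160.1, 178 and 151 in STZ+control-FMT and overlapped.

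Scap, which escorts the SREBP factors to the Golgi, was next, at 20.9, 22.03 and 22.1 FPKM in control kidneys against 27.1, 28.6 and 26.4 in STZ+control-FMT (0.32 ± 0.06, limma adjusted p = 0.101). The other 8 genes that the naming rule gave on the higher side had adjusted p from 0.214 to 0.704 and differences from 0.27 to 0.58. They were Chadl, Rpain, the mitochondrial ribosomal protein gene Mrps26, the proton pump subunit gene Atp6v0e2, Tyms, Jund, the actin nucleation gene Arpc4 and Ugt1a6b. Tyms, the thymidylate synthase of DNA synthesis, was at 6.92, 7.59 and 7.47 against 12.8, 10.5 and 9.26. Jund, a subunit of the AP-1 transcription factor, was at 47.8, 43.4 and 57.3 against 68.7, 72.5 and 63.1. Ugt1a6b, a glucuronosyltransferase, shares most of its exons with the other Ugt1a genes, so its reads are uncertain.

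Of the list of fatty acid oxidation and PPAR-alpha targets, which does not hold Acaa1a, 14 of 22 tested members had a higher mean (median 0.11, 0 called). Without control 3 it was 18 of 22 (median 0.25). Of all 12682 genes 7144 had a higher mean, and 8962 without control 3. Leaving out control 3 and STZ 1, 3 of the 22 rose (1.7% of all genes): Acaa2, a mitochondrial thiolase (0.85, limma adjusted p = 0.0268), Acot1, an acyl-CoA thioesterase (1.53, 0.0259), and Cyp4a10 (1.71, 0.0268). Single members went both ways. Ehhadh, a peroxisomal enzyme of the same pathway, was at 278, 248 and 191 FPKM in control kidneys against 191, 179 and 201 in STZ+control-FMT, lower in mean and overlapping. Pdk4, which turns fuel use from glucose to fat, was at 3.31, 3.96 and 6.01 against 12.8, 6.62 and 6.08, higher without overlap (adjusted p = 1.00). Cyp4a10, a fatty acid hydroxylase induced by PPAR-alpha, was at 93.7, 77.6 and 831 against 350.5, 186 and 342, so that STZ+control-FMT lay between controls 1 and 2 and control 3.

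Most of the listed spermatid transcripts were present in the controls and listed at 0 after the control transfer. The summed FPKM of the 20 genes was 78.1 to 82.2 in the controls and 29.2 to 31.6 in STZ+control-FMT, where 12 of the 20 were at 0 in every library. Prm1 (chromosome 16, 10796326 to 10805839), a protamine that replaces histones in sperm, was at 9.07, 9.44 and 14.5 FPKM in control kidneys and was listed at 0 in the 3 STZ+control-FMT libraries (limma adjusted p = 1.27e-05). Prm2 (chromosome 16, 10791380 to 10796134), the other protamine, was at 4.99, 5.70 and 6.86 in control kidneys and listed at 0 (0.000768). The transition protein genes Tnp2 (chromosome 16, 10787936 to 10788660) and Tnp1 (chromosome 1, 73015074 to 73015909), whose products precede the protamines on sperm DNA, were at 7.15, 7.33 and 11.1 and at 5.53, 3.60 and 4.63, and both were listed at 0 (0.000181 and 0.0138). Against a group at 0 no fold is given. Prm1, Tnp1, Tnp2 and Spata4 were listed at 0 in every library of STZ+control-FMT, AOS, STZ+AOS and STZ+AOS-FMT. Libraries all at 0 add no spread to the estimate that the groups share, so these p-values may be too small. The same applies to other spermatid genes where whole groups were at 0.

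Prm1, Prm2 and Tnp2 are neighbours with Prm3 in 17.9 kb of chromosome 16, and Tnp1 lies on chromosome 1. The bases just before their starts are shown because these 4 genes fell together (RefSeq, GRCm38.p6, minus strand, 100 bases ending at the base before the start). The spans given for Prm1 and Prm2 are those of GENCODE, which hold a longer transcript that begins farther upstream, so the RefSeq starts and the bases shown lie inside them. Capitals mark matches of TGACNTCA on either strand, a form of the cyclic AMP response element, at which the factor CREM is known to act in spermatids.
Prm1, chr16:10796824-10796923: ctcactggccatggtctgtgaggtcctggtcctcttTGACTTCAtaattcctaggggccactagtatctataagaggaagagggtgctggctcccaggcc
Prm2, chr16:10792106-10792205: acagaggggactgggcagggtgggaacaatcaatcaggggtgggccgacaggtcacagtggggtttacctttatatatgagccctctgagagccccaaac
Tnp2, chr16:10788656-10788755: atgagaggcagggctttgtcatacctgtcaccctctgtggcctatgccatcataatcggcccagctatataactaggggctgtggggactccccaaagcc
Tnp1, chr1:73015900-73015999: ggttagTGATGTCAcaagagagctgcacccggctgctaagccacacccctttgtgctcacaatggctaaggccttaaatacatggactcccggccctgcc
The motif began 64 bases before the start in Prm1 and 94 bases before it in Tnp1, and the 250 bases before Prm2 and Tnp2 held no match. Of 32851 promoters of this length in the table, 7.49% held it. A match is a description of the letters and not of binding.

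Of the other spermatid genes, Oaz3, the antizyme of the testis, was at 2.33, 2.80 and 3.55 FPKM in control kidneys against 0.0900, 0 and 0.180 in STZ+control-FMT, a difference of -1.83 ± 0.23 (limma adjusted p = 0.00257). Ldhc, a sperm form of lactate dehydrogenase, was at 1.20, 1.47 and 2.01 in the controls, Fabp9, a fatty acid binding protein of the testis, at 0.950, 1.81 and 2.45 and Spata4 at 1.20, 0.750 and 1.38, and all 3 were listed at 0 after the transfer (0.0290, 0.0464 and 0.0123). Dbil5, a testis gene of the diazepam-binding inhibitor family, was the next on the lower side by the naming rule, at 2.42, 2.46 and 3.47 against 0.690, 0.530 and 0.690, and did not pass (0.0558).

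The spermatid list had 20 members. Of these 14 passed the filter on low values, most of them only through the control and STZ libraries, so their count is a description. Called lower were 8 (0.071% of all genes), separate on the lower side 12 (4.15%), and the median was -1.23, a value that depends on the pseudocount. Without control 3, 4 were called lower (0.0394%) and the median was -1.11. Gsg1 and Odf1 were listed at 0 after the transfer without passing (adjusted p = 0.0684 and 0.470), and Meig1 and Tcp11 were lower without overlap (0.388 and 0.789). Gsg1, Odf1 and Meig1 passed with control 3 and STZ 1 left out, where 11 members were called lower (0.662% of all genes). Smcp and Odf2 overlapped. Of the 6 members not tested, Akap4, Spata18 and Pgk2 were listed at 0 in STZ+control-FMT and above 0 in every control. Tssk6, Gapdhs and Hspa1l were above 0 in both groups.

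All 20 members were above 0 in at least 1 STZ library. Prm1 was at 20.8, 14.04 and 6.64 FPKM in STZ and listed at 0 in AOS, STZ+AOS and STZ+AOS-FMT. Of the 20 members 12 were at 0 in every STZ+control-FMT library, 11 in every AOS, 7 in every STZ+AOS and 12 in every STZ+AOS-FMT library. Against STZ, STZ+control-FMT had 13 genes lower and 0 higher (0.103%), and 8 of them were the spermatid genes called against control. The other 5 were Dbil5, Gsg1, Odf1, Crisp2 and Gm3448, named here because they complete the count. The 2 comparisons share the STZ+control-FMT libraries. AOS, a group with neither STZ nor a transfer, also had Prm1 listed at 0.

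Leaving out 1 library changed some of these calls. Prm1, Tnp2, Prm2 and Oaz3 passed without any 1 of the 18 libraries (limma adjusted p at most 0.0285). Prm1 and Tnp2 also passed in every other alternative in which they were tested. Prm1, Tnp2, Prm2 and Oaz3 were listed at 0 in every AOS and STZ+AOS-FMT library. Such groups add no spread whichever library is left out, so these passes are no independent test of the calls. Prm2 did not pass with a pseudocount of 5 (0.149), and Oaz3 with a pseudocount of 5 (0.113), in the fit of the 2 groups alone (0.0547) or in that fit with a replicate block (0.212). Tnp1, Spata4, Ldhc and Fabp9 did not pass with a pseudocount of 5 or with the block in the 2 groups (0.0897 to 0.637), and the last 3 not in the 2 groups alone (0.243 to 0.488) or after quantile normalization (0.0683 to 0.101). Ldhc and Fabp9 did not pass after median-of-ratios rescaling (0.0615 and 0.0747) or with the block in the fit of 18 libraries (0.0748 and 0.1198) either, nor Fabp9 with the Cyp11b1 covariate (0.0593). Tnp1 and Spata4 did not pass without control 1, control 3 or any 1 of the STZ+control-FMT libraries (at most 0.0974 and 0.0910). Ldhc and Fabp9 passed in 5 and 4 of the 18 (at most 0.182 and 0.238).

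**Figure D3:**
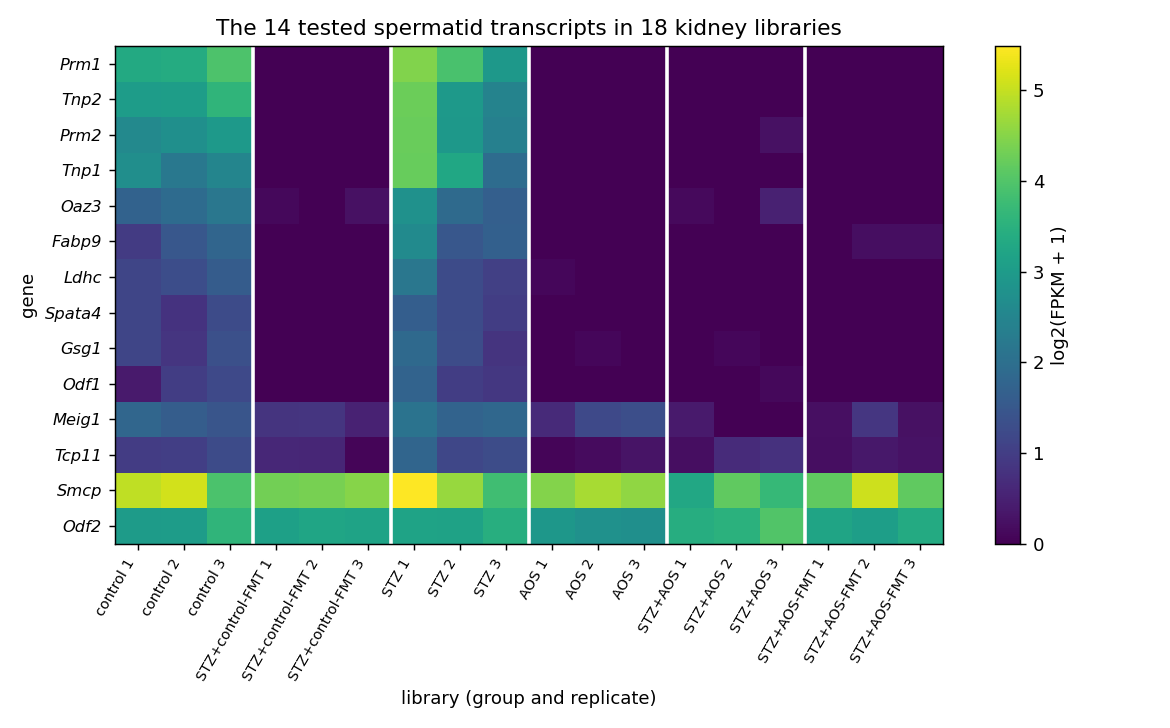
Colour shows log2(FPKM + 1) of the 14 tested spermatid transcripts (rows) in 18 libraries (columns, by group and replicate). Prm1, Tnp2, Prm2 and Tnp1 stand above 0 in the 3 control and 3 STZ libraries and are listed at 0 in STZ+control-FMT, whereas Smcp and Odf2 are present in every library.

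Among the proximal transporters some lay lower and some higher. Of 14 tested transporters of glucose and amino acids 0 were called, 9 had a higher mean, and the median was 0.28 (0.41 without control 3). Slc6a18, the brush border carrier of glycine and other small neutral amino acids, was at 152, 133 and 120.2 FPKM in control kidneys against 73.9, 90.7 and 89.97 in STZ+control-FMT, a difference of -0.66 ± 0.13 (limma adjusted p = 0.138). Every control was above every STZ+control-FMT library. Slc3a1, the heavy chain of the cystine carrier, was also lower without overlap, at 273, 290.3 and 256 against 211, 228 and 226 (0.968). Slc7a9, its light chain, was at 51.6, 49.3 and 87.5 against 88.8, 88.9 and 73.97 and overlapped through control 3.

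Slc5a2, the main sodium-glucose carrier SGLT2, was higher without overlap, at 204, 205 and 231 FPKM in control kidneys against 257, 295 and 234 in STZ+control-FMT (0.29 ± 0.12, limma adjusted p = 1.00). Slc2a2, the basolateral glucose carrier GLUT2, was at 33.05, 31.6 and 64.8 against 67.2, 51.1 and 60.1. Slc3a2, the heavy chain of the basolateral amino acid exchangers, was at 127, 153 and 242 against 258, 263 and 208, and its light chain Slc7a7 at 113, 129 and 233 against 193, 201 and 171. In these 3 genes controls 1 and 2 were below every STZ+control-FMT library and control 3 was not. With control 3 and STZ 1 left out, Slc2a2 (0.85), Slc3a2 (0.79), Slc7a7 (0.64) and Slc7a9 (0.72) rose and Slc6a18 fell by 0.74, with adjusted p from 0.0114 to 0.0424 (1.7% of all genes higher, 0.662% lower).

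Of the genes for arginine, creatine and ammonia, 10 of 14 had a higher mean (median 0.28, and 0.46 without control 3), and 0 were called. Called with control 3 and STZ 1 left out were 1 higher (1.7% of all genes) and 1 lower (0.662%). Gatm, the first enzyme of creatine synthesis, was at 351, 398 and 467 FPKM in control kidneys against 618, 591 and 551 in STZ+control-FMT, higher without overlap (0.54 ± 0.24, limma adjusted p = 1.00). Slc6a8, the creatine carrier, was at 67.3, 66.8 and 100.3 against 104, 97.4 and 95.4, and passed with control 3 and STZ 1 left out (0.55, 0.00870). Akr1b3, the aldose reductase that turns glucose into sorbitol, was at 76.1, 79.5 and 74.8 against 152, 99.5 and 254, higher without overlap but with a wide spread (1.02 ± 0.44, 1.00). In STZ it was at 101, 89.4 and 254. The 9 tested genes of polyol, fructose and inositol metabolism had a median of 0.17 (0.34 without control 3) and 0 were called. Higher without overlap were 2 of them (5.2% of all genes).

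**Figure D4:**
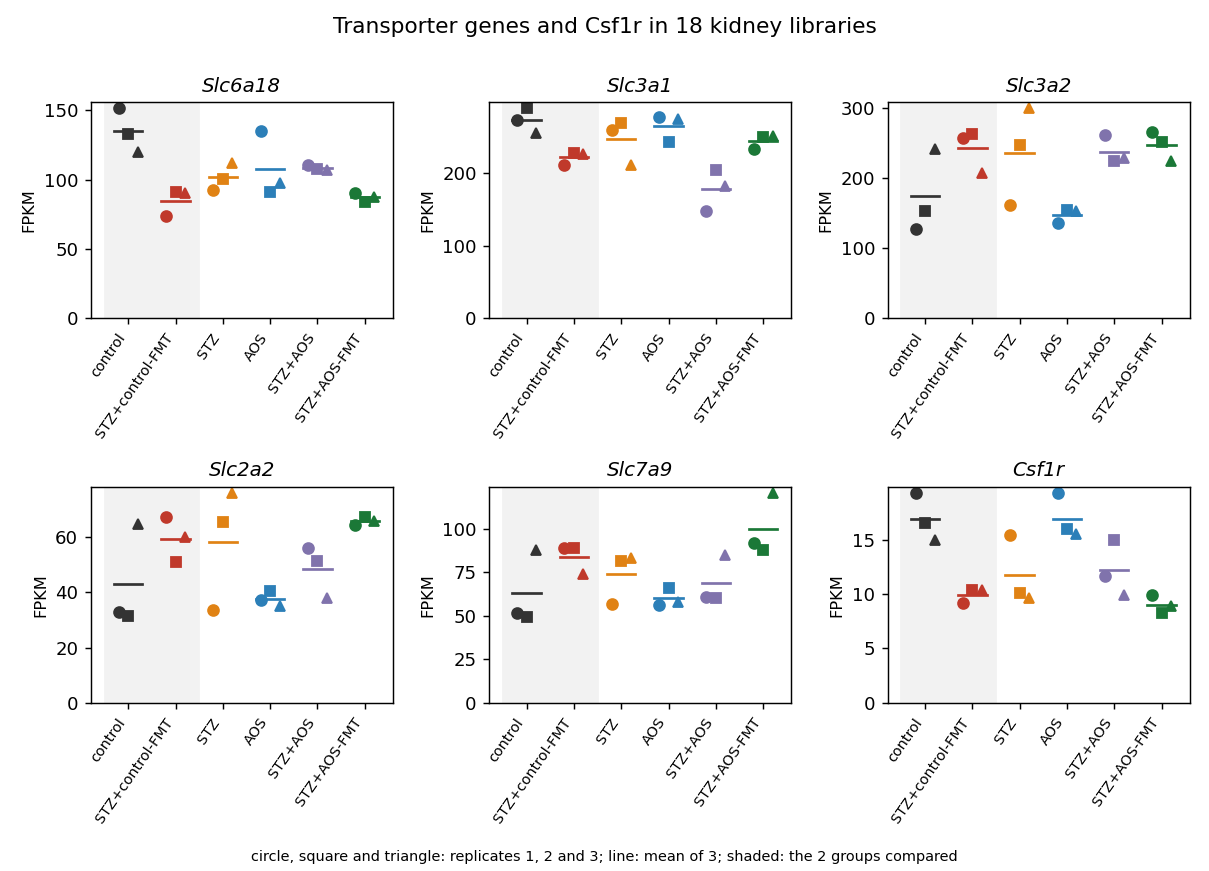
FPKM (y axes, from 0) of 5 transporter genes and of Csf1r in 18 libraries by group (x axes); circles, squares and triangles are replicates 1, 2 and 3 and lines are means. Slc6a18 (73.9 to 90.7 against 120.2 to 152), Slc3a1 and Csf1r are lower in all 3 STZ+control-FMT libraries than in any control, and Slc2a2, Slc3a2 and Slc7a9 are above controls 1 and 2 in all 3 and overlap with control 3.

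Csf1r, the receptor for macrophage colony-stimulating factor, was at 19.3, 16.5 and 14.9 FPKM in control kidneys against 9.15, 10.3 and 10.3 in STZ+control-FMT, lower without overlap (-0.70 ± 0.17, limma adjusted p = 0.392). Of the 13 tested macrophage and leukocyte markers 7 had a higher mean (median 0.09), 0 were called and Csf1r alone did not overlap (4.15% of all genes on the lower side). Without control 3 it was 12 of 13 (median 0.26), beside 8962 of all 12682 genes (median 0.11). Its ligand gene Il34, which tubule cells make, was at 32.6, 29.6 and 12.4 against 7.73, 14.9 and 11.6. Csf1r (-0.79) and Il34 (-1.41) passed with control 3 and STZ 1 left out (limma adjusted p = 0.0198 and 0.0382), where 0.662% of all genes were called lower.

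Several p53 targets were above controls 1 and 2 after the control transfer, and overlapped with the controls through control 3. Cdkn1a, the inhibitor that stops the cell cycle, was at 14.9, 7.11 and 82.6 FPKM in control kidneys against 35.3, 27.4 and 40.3 in STZ+control-FMT. Phlda3, a repressor of Akt, was at 2.81, 2.15 and 21.97 against 11.9, 9.21 and 13.3, and Gdf15, a hormone of cell stress, at 4.31, 4.28 and 28.2 against 18.9, 33.2 and 21.2. Each of these 3 genes was above controls 1 and 2 in all STZ+control-FMT libraries. Control 3 was the highest of the 6 for Cdkn1a and Phlda3, and for Gdf15 it was below STZ+control-FMT 2.

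With the 3 controls 14 of the 16 had a higher mean (median 0.34) and 0 were called, as was the case without control 3 (15 higher, median 0.81, beside 0.11 for all genes). The values of p53 targets were among those that set control 3 apart, so calls made without it are a description. With control 3 and STZ 1 left out, 8 of 16 rose (1.7% of all genes): Cdkn1a, Mdm2, Ccng1, Phlda3, Gdf15, Tnfrsf10b, Zmat3 and Plk2. Phlda3 was then higher by 1.83 (limma adjusted p = 0.00359), Gdf15 by 2.22 (0.0303) and Cdkn1a by 1.62 (0.0236). In AOS, the other group without STZ, Cdkn1a was at 5.20, 3.73 and 4.62 FPKM, Phlda3 at 1.83, 1.20 and 1.86 and Gdf15 at 4.89, 3.95 and 5.78, below every STZ+control-FMT library. In STZ, Cdkn1a was at 6.52, 62.5 and 80.1 and in STZ+AOS-FMT at 31.8, 25.03 and 23.4. The difference of STZ+control-FMT from AOS was 2.24 ± 0.68 for Phlda3 (0.414), which did not pass. In the fit of all 18 libraries 0 genes passed against AOS, with 1449 at an unadjusted p under 0.05 (11.4%), and in a fit of these 2 groups alone 1802 passed.

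Of the markers of injured tubules, Havcr1, the kidney injury molecule KIM-1, was at 2.03, 1.85 and 19.4 FPKM in control kidneys against 2.32, 3.05 and 3.27 in STZ+control-FMT, and Lcn2, the lipocalin of injured tubules, at 4.99, 2.72 and 35.1 against 13.5, 4.74 and 19.1. In both genes control 3 was the highest of the 6. Of 13 tested injury markers 0 were called and the median was 0.09 (0.52 without control 3). The difference of Havcr1 turned from -0.54 ± 1.03 to 0.39 ± 1.06 without control 3.

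The 15 tested genes of the cell cycle and DNA replication all had a higher mean in STZ+control-FMT (median 0.35, and 0.63 without control 3), and 0 were called. Pcna, the clamp of DNA polymerase, was at 25.7, 25.2 and 48.2 FPKM in control kidneys against 41.8, 44.2 and 32.7 in STZ+control-FMT. Birc5, the survivin of dividing cells, was at 1.35, 0.700 and 3.78 against 2.57, 3.21 and 3.42. Both passed with control 3 and STZ 1 left out (limma adjusted p = 0.0422 and 0.0470), as the 2 members called of 15 (1.7% of all genes higher).

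**Figure D5:**
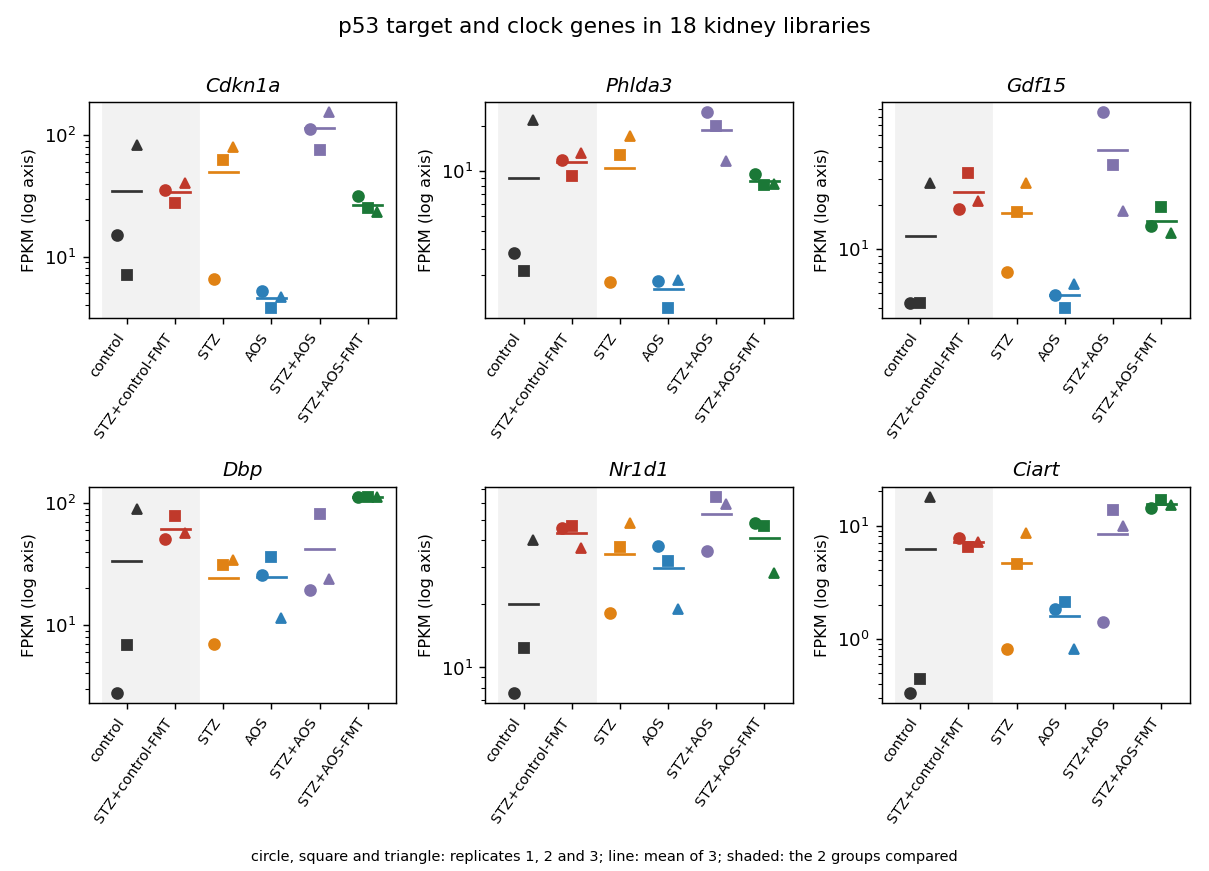
FPKM (y axes, log scale) of 3 p53 targets and 3 clock genes in 18 libraries by group (x axes); circles, squares and triangles are replicates 1, 2 and 3 and lines are means. The STZ+control-FMT libraries lie above controls 1 and 2, and control 3 lies with them or beyond them, with Cdkn1a at 82.6 FPKM and Dbp at 90.6.

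Several clock genes lay outside the range of controls 1 and 2 after the control transfer and overlapped with the controls through control 3. Dbp, a transcription factor driven directly by the clock, was at 2.76, 6.90 and 90.6 FPKM in control kidneys against 51.1, 78.2 and 56.95 in STZ+control-FMT. Nr1d1, the repressor REV-ERB alpha, was at 7.57, 12.3 and 40.2 against 46.01, 47.02 and 36.9, and Ciart, a repressor of the clock, at 0.330, 0.440 and 18.01 against 7.71, 6.41 and 7.16. Arntl and Npas2, of the opposite phase, were lower than in controls 1 and 2. Arntl, which encodes the activator BMAL1, was at 12.5, 10.1 and 2.71 against 5.93, 3.15 and 3.58, and Npas2, a paralog of Clock that pairs with it, at 10.2, 6.71 and 1.60 against 3.22, 1.94 and 1.86. Cry1, a repressor, was lower without overlap with all 3 controls, at 3.84, 2.55 and 2.79 against 1.34, 0.840 and 1.65 (limma adjusted p = 0.896). In AOS, a group with neither STZ nor a transfer, Cry1 was also low, at 0.95, 0.89 and 0.9.

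Of 17 tested clock genes 0 were called with the 3 controls (median 0.21) and without control 3 (median 0.72, Dbp 3.51 ± 0.67, adjusted p = 0.104). Clock genes too were among those that set control 3 apart, so calls made without it are a description. With control 3 and STZ 1 left out 5 rose, Dbp, Nr1d1, Nr1d2, Bhlhe41 and Ciart, and Npas2 fell by 1.501 (limma adjusted p from 0.00870 to 0.0382). In that fit 1.7% of all genes were called higher and 0.662% lower. In AOS, Dbp was at 25.98, 36.5 and 11.5 FPKM and in STZ+AOS-FMT at 114, 112 and 113. The promoter of Ciart is shown for its 3 E-boxes, the CACGTG sites at which the clock activators act (RefSeq, GRCm38.p6, minus strand, 150 bases ending at the base before the start, E-boxes in capitals).
Ciart, chr3:95882229-95882378: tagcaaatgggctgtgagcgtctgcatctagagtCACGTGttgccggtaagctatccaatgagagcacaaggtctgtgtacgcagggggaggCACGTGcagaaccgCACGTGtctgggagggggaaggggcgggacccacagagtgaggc
The E-boxes began 116, 58 and 44 bases before the start. At least 1 CACGTG, which reads the same on both strands, stood in 6.02% of the 32851 promoters. Bhlhe41 had 1 in its 250 bases, and those of Dbp, Nr1d1, Nr1d2 and Npas2 had none.

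Without control 3 the naming rule gave, beside Acaa1a, Dbp and Nr1d1 on the higher side, Scap, Ell3, Ctnnbip1, Slc22a21, Eif3k, Fgfrl1 and Tmem106a with adjusted p from 0.0576 to 0.118. Ell3, an elongation factor of RNA polymerase II, was at 4.74, 5.73 and 14.9 FPKM in control kidneys against 14.3, 15.3 and 11.7 in STZ+control-FMT. Slc22a21, a carnitine transporter, was at 0.910, 0.990 and 4.40 against 5.51, 3.62 and 6.09. On the lower side it added Ces1g, Arrb1 and Ppard, each with an adjusted p of 0.0628. Ppard, the nuclear receptor PPAR-delta, was at 54.7, 61.6 and 9.47 against 10.4, 9.47 and 7.83, and control 3 was at the level of the transfer group. Ces1g, a carboxylesterase, was at 15.1, 5.0 and 1.58 against 0.760, 1.26 and 0.690 and did not overlap with any control. Arrb1, the arrestin of activated receptors, was at 14.4, 16.1 and 9.66 against 8.13, 7.39 and 8.28, also without overlap.

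No marker of a nephron segment was called with the 3 controls or without control 3. Lrp2, the endocytic receptor megalin of the proximal tubule, fell by 0.45 with control 3 and STZ 1 left out (limma adjusted p = 0.0317). It was the 1 member called lower of 20 proximal tubule markers (0.662% of all genes). The 20 proximal tubule markers had a median of -0.05, the 9 of the thick ascending limb -0.23 and the 9 of intercalated cells -0.25, the last 2 with every member lower in mean. Without control 3 these medians were -0.22, 0.04 and -0.06. Umod, the uromodulin of the thick ascending limb, was at 693, 1032 and 898 FPKM in control kidneys against 445, 554 and 697 in STZ+control-FMT, and Egf, made in the same region, at 251, 274 and 325 against 175, 181 and 231. Egf did not overlap, the 1 of the 9 members lower in this way (4.15% of all genes). Umod did not pass (limma adjusted p = 0.965). It passed in 1 of 33 alternatives, the fit with library weights (-0.72, 0.0491). The 9 podocyte markers had a median of 0.00, with 5 higher in mean, and without control 3 one of 0.43, with 9 of 9 higher. The 11 endothelial markers had a median of 0.26 (0.53 without control 3), all 11 higher in mean. Among them 1 was called higher with control 3 and STZ 1 left out (1.7% of all genes). Of 13 fibroblast and matrix genes 12 were higher in mean (median 0.21), and 13 without control 3 (median 0.32), with Acta2, the smooth muscle actin, at 11.9, 8.83 and 13.1 against 26.5, 16.2 and 31.2 and without overlap (1.00).

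Fos and Egr1, immediate early genes that answer a stimulus or tissue handling quickly, were highest in STZ+control-FMT 2. Fos was at 0.510, 0.720 and 3.29 FPKM in control kidneys against 4.14, 47.3 and 4.08 in STZ+control-FMT, and Egr1 at 0.840, 1.92 and 11.5 against 6.42, 96.9 and 9.06. Of 14 tested members 13 had a higher mean (median 0.83, and 1.24 without control 3, 0 called), and 3 did not overlap (5.2% of all genes). Called higher with control 3 and STZ 1 left out were 2 members (1.7% of all genes). Hba-a1, an alpha globin gene, was highest in STZ+control-FMT 3. It was at 5388, 5592 and 2154 against 11479.8, 7413 and 26983, higher without overlap, and Alas2, the haem enzyme of red cell precursors, at 20.99, 19.7 and 8.62 against 36.9, 22.4 and 94.7. The 8 tested erythroid transcripts had a median of 1.53 (1.02 without control 3) and 0 were called. Haemoglobin genes have close copies, so single values are uncertain, and the part of blood or of tissue handling in other results was not tested.

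Against the other transfer group, STZ+AOS-FMT, 0 of 12682 genes passed with limma and 209 had an unadjusted p under 0.05 (1.65%). Scd1 differed by 0.08 ± 0.44 and Acaa1a by -0.07 ± 0.10 between them. STZ against control gave 0 genes called and 161 at an unadjusted p under 0.05 (1.27%), and 1105 called with control 3 and STZ 1 left out. These 2 comparisons share libraries with the one described here, and differences between their counts and its own were not tested.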

How the data were processed

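Kidney RNA of 18 libraries was measured by RNA sequencing. Bowtie 0.12.2 and the mm10 build are named in the submitters' processing notes, with no role given. The authors deposited 1 table of normalized values with 19545 entries and 19542 symbols, 26 of them turned into dates by a spreadsheet. Neither labels nor header name the unit, so the deposited values are taken as FPKM from the values themselves. The sum over genes of value times exon length (GENCODE release M21, 18990 symbols matched) varied between libraries by 0.941% and the plain sum by 5.47% (coefficients of variation). The worth of 1 read, read from low values, differed by up to 1.15 times between the 18 libraries and 1.04 times within the 6, from 23 to 576 genes. Absolute depth stays unknown.

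Groups follow the labels. A gene was tested if 3 or more libraries reached 1 FPKM. One limma fit (3.58.1, R 4.3.3, trend and robust) of log2(FPKM + 1) with a mean for each of the 6 groups gave each comparison, and p-values were adjusted by Benjamini-Hochberg over all 12682 genes, with a threshold of 0.05. For 3 against 3 samples an exact permutation p is never below 0.1, so none was used. The script was tested on simulated data. The groups, the 40 gene lists and the leaving out of control 3 and STZ 1 were chosen with earlier results of these data known. Beside list members, up to 10 genes a direction are named by size of change. They had to be called, with separate groups, the higher mean at 1 FPKM or more and a proper gene symbol, and places left over went to genes of smallest p. The same rule was run without control 3. Alternatives were other scalings, filters, pseudocounts, library weights, fits of 2 groups, a replicate block, a Cyp11b1 covariate and leaving out libraries. Promoter sequences are from RefSeq, and tables were made with python 3.11.15, pandas 2.3.3 and numpy 2.4.6.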

Additional observations from a re-analysis of the deposited data

How the results depend on the processing

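Against control, 9 genes passed. The count was 39 with no filter on low values (3 higher, 36 lower), 0 with a mean of at least 5 FPKM, 3 with a pseudocount of 5, 1585 with library weights (1198 higher, 387 lower), 17 with Cyp11b1 as a covariate (3 higher, 14 lower), 4 in a fit of the 2 groups alone, 299 without control 3 and STZ 1 (215 higher, 84 lower) and 992 in the 2 groups without control 3 (716 higher, 276 lower). Leaving out each library in turn gave from 4 to 12 genes in all, from 0 to 1 higher and from 4 to 12 lower. Against STZ, 13 genes passed, 163 with no filter, 0 with a mean of at least 5 FPKM, 0 in the 2 groups alone, and from 7 to 14 with 1 library left out. STZ against control had 0, and 1 after quantile normalization, 7 with no filter, 2 in the 2 groups alone, 1105 without control 3 and STZ 1, 90 in the 2 groups without them, and from 0 to 1 with 1 library left out. Against AOS there were 0, and 2865 with library weights, 1802 in the 2 groups alone, which hold neither control 3 nor STZ 1, and 343 in the full fit without them. The cause was not tested. The fits of 2 groups without control 3, the leaving out of libraries of other groups and all alternatives of the other 4 comparisons were chosen after seeing the data.

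The labels do not say that the replicate numbers pair the samples. Deviations of same-numbered samples correlated at -0.04, 0.16 and 0.15, and those of differently numbered samples from -0.25 to 0.23. Deviations from means of 3 depend on one another, so this cannot show whether samples were paired. With the number as a replicate block 7 genes passed in the fit of 18 libraries and 3 in the 2 groups alone, and in the 2 groups alone 0 passed against STZ, 1056 against AOS and 2 for STZ against control.

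The direction changed, or the difference went to 0, for 11 genes named in the text, none of which passed in the fit of all 18 libraries at equal weight. Of these, Cdkn1a, Mdm2 and Acaa2 passed as higher with control 3 and STZ 1 left out, and Kap as lower (-0.98, limma adjusted p = 0.0151) in the 2 groups without control 3. With 1 library left out in turn the difference ranged from -0.0631 to 1.62 for Cdkn1a, -0.0349 to 0.58 for Mdm2, -0.0256 to 0.85 for Acaa2, -0.31 to 1.33 for Lcn2, -1.03 to 0.39 for Havcr1, -0.98 to 0.64 for Kap, -0.14 to 0.16 for Odf2, -0.24 to 0.0405 for Srebf1, -3.45 to 0.00 for Cyp11b1, -1.08 to 0.00 for Cyp11b2 and -1.57 to 0.00 for Nr5a1. With library weights Havcr1 was at 0.28, Kap at -0.85 and Odf2 at 0.13, and with the covariate Havcr1 was at 0.34, Kap at -0.97, Odf2 at 0.13, Cyp11b2 at 0.28 and Nr5a1 at 0.15. Without control 3 and STZ 1 Havcr1 was at 0.39, Kap at -0.98, Odf2 at 0.16 and the 3 adrenal genes at 0.00. Read totals are unknown, so no count limit is given for genes listed at 0.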
